A study of Mus musculus with 2 samples.

Results

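The 40 genes described here encode proteins of the extracellular matrix of the mouse mammary gland: 6 fibrillar collagens, 5 beaded filament and FACIT collagens, 15 basement membrane genes, 1 hemidesmosome collagen, 3 small leucine-rich proteoglycans and 10 matrix glycoproteins. They were grouped by function, with earlier results of these data known, out of 32285 genes in each count table, and all 40 were found in both. Their unique molecular identifiers (UMIs, each standing for 1 captured mRNA molecule) were counted by cell class in 2 10x Genomics 3' libraries of mammary glands from wild-type female mice of 9 to 10 weeks per the labels (8 to 10 weeks per the protocol). The library Ctrl came from control mice and the library CL from mice given repeated intraperitoneal injections of clodronate liposomes, a reagent that kills phagocytes that take it up. Both suspensions were sorted for live cells without CD31 and TER119 and held CD45+ immune cells too, in a proportion that the sources used here do not state, and they do not give the number of mice per library. With 1 library per group there was no replicate, so no difference between Ctrl and CL could be tested. The 95% intervals given here, exact for Poisson or binomial counts, cover counting error only.

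The matrix of the mammary gland has layers with different makers. Fibroblasts secrete the fibrillar collagens as precursors that assemble into rope-like helices and then fibrils, onto which collagen VI, the FACIT collagens and the small proteoglycans decorin and lumican bind. Under the epithelium and around vessels lies the basement membrane, a thin sheet in which a laminin network and a collagen IV network are linked by nidogens and perlecan. Basal, myoepithelial cells sit on that sheet and are anchored to it by hemidesmosomes. Macrophages, the target of the treatment, take up collagen and exchange signals with fibroblasts.

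The Ctrl library held 118743318 UMIs and the CL library 155765480. After filtering, 5929 Ctrl and 8771 CL cells were kept, with medians of 11332 and 10280 UMIs per cell. Of the kept cells, 254 Ctrl and 269 CL cells were fibroblast-like, 405 and 444 basal-like, 53 and 59 endothelial-like, 2023 and 2541 hormone-responsive luminal-like and 2606 and 3892 secretory-lineage luminal-like. The endothelial-like cells are those that a sort against CD31 left behind. A further group of 37 Ctrl and 43 CL cells, cluster 20, held 9 pericyte markers at 2 times the median cluster or more, but its leading genes were the contractile genes Myl9, Tagln, Acta2 and Myh11 with no marker of the pericyte list among its 10 leading genes, and it is therefore called by its number. The 9 macrophage markers, summed over all kept cells, stood at 69.7 UMIs per 1000000 UMIs (CPM) [68.0, 71.5] in the Ctrl library and at 217 CPM [215, 220] in the CL library. Most of that difference was Lyz2, a gene of other myeloid cells too, which stood at 12.5 and 139 CPM and had 95.1% of its CL UMIs in cluster 21, a cluster led by Lyz2 and S100a8 (18 Ctrl and 211 CL cells) that was left unnamed although 7 of these markers stood there at 2 times the median cluster or more. The other 8 markers summed to 57.2 CPM [55.7, 58.9] and 78.3 CPM [76.7, 79.9], a split made after the values were seen. Of them, Pf4 (2.79 and 1.08 CPM) and Mrc1 were lower in CL beyond counting error. Adgre1, Csf1r, C1qb, C1qc and C1qa (16.2 and 22.7 CPM) were higher, and the interval of Ms4a7 held 0. The share of kept cells named macrophage-like was 0.692% [0.497, 0.937] in Ctrl and 0.479% [0.345, 0.647] in CL. The markers thus ran in both directions, and Ctrl and CL mean throughout the libraries so labelled. Barcodes that both libraries shared among their candidate cells were carried by 16 Ctrl and 17 CL kept cells, and leaving them out moved no summed ratio given here beyond its counting interval.

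The fibrillar and collagen VI genes whose values the results turn on are shown by the 250 bases before their start (RefSeq, GRCm38.p6, 5' to 3' on the strand of the gene), for the members in which no annotated exon overlaps that window. Capitals mark a match on either strand to the TATA box (TATAAA), the CCAAT box (those letters) or the GC box (GGGCGG). Col3a1 stands for the fibril collagens that were lower in CL. Col5a1 and Col5a3 stand for 2 chains of collagen V whose ratios differed in sign in the fibroblast-like class as a whole. Col6a3 had the largest difference in hormone-responsive luminal-like cells among the members with at least 50 UMIs. The windows are chr1:45311288-45311537 (plus strand), chr2:27886175-27886424 (plus), chr9:20815068-20815317 (minus) and chr1:90843972-90844221 (minus).
Col3a1: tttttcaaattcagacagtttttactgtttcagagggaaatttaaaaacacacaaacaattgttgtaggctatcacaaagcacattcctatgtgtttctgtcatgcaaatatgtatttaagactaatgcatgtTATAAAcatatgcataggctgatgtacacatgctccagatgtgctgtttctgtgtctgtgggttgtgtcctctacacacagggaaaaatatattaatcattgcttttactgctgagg
Col5a1: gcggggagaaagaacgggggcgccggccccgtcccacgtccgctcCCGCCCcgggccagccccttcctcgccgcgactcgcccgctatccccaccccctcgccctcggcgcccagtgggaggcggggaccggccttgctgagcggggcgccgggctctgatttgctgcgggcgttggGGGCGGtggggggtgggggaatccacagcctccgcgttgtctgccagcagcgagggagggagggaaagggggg
Col5a3: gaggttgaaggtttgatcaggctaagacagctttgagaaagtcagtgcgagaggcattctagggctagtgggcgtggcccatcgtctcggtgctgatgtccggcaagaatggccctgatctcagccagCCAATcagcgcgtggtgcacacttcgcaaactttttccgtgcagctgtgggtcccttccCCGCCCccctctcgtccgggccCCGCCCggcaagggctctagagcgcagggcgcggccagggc
Col6a3: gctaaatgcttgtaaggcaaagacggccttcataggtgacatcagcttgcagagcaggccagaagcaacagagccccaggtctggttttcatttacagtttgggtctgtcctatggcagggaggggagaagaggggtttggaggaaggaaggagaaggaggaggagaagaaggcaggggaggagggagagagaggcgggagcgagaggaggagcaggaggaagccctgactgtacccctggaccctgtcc

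The 4 windows differ in base composition. G and C made up 35.2% of the Col3a1 window, 76.4% of Col5a1, 62.8% of Col5a3 and 57.2% of Col6a3. Col3a1 held a TATA box match 117 bases before its start, Col5a1 held GC box matches at 205 (reverse strand) and 73 bases, and Col5a3 held a CCAAT box match at 122 bases and GC box matches on the reverse strand at 63 and 41 bases. The Col6a3 window held none of the 3 motifs. Of 32851 such windows in the RefSeq table, 12.4% held a TATA box match, 33.8% a CCAAT box match and 32.7% a GC box match. Over the 33 windows of the 27 members in the table, 6 held the first, 10 the second and 18 the third. A match describes letters in the window and is not a bound site.

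Most of the fibrillar collagen mRNA was in fibroblast-like cells, whereas the basement membrane genes were spread over stroma and epithelium. Fibroblast-like cells held 96.6% of the fibrillar collagen UMIs of all kept cells in Ctrl and 95.9% in CL, although they were few. Of the basement membrane UMIs they held 26.86% and 21.02%, basal-like cells 24.0% and 15.5%, hormone-responsive luminal-like cells 25.1% and 25.7%, and secretory-lineage luminal-like cells 15.8% and 22.4%. Of the Col17a1 UMIs, 95.9% in Ctrl and 91.9% in CL were in basal-like cells. The glycoprotein UMIs were shared between fibroblast-like cells (35.6% and 28.4%), secretory-lineage luminal-like cells (35.3% and 36.9%) and basal-like cells (20.6% and 18.1%). These shares depend on how many cells of each class a library held as well as on the mRNA per cell.

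**Figure D1:**
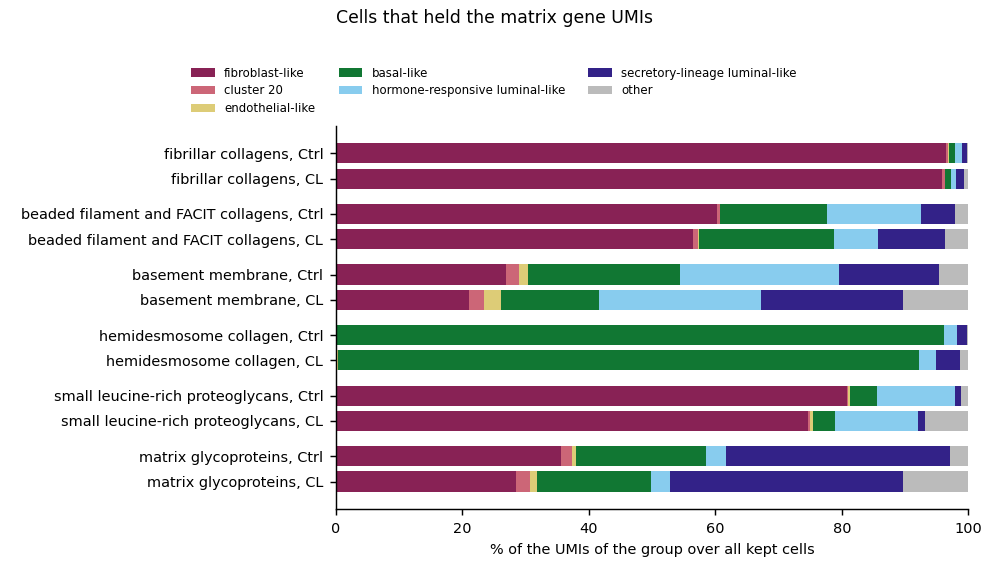
Share of the UMIs of each gene group (percent of the UMIs of that group over all kept cells, horizontal axis) by cell class, with 1 bar per library. The fibrillar collagens are almost wholly fibroblast-like (96.6% and 95.9%) and Col17a1, the hemidesmosome collagen, is basal-like (95.9% and 91.9%), while the basement membrane bars are divided among many classes, with a further 4.25% and 8.84% in clusters that matched both luminal lists.

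Droplets with 100 to 300 UMIs outside the candidate cells were taken, without a test, to hold no cell. Lysed cells leave free mRNA in every droplet, so each level was set beside that of these droplets. The luminal genes used to track free mRNA stood at 11.5% (Ctrl) and 12.6% (CL) of that level in fibroblast-like cells. They stood at 17.2% and 19.1% in basal-like cells, 7.53% and 8.90% in cluster 20 and 14.7% and 39.3% in endothelial-like cells. A member below the empty droplets is therefore not shown to be absent from a class. In fibroblast-like cells 35 of the 40 members stood above the empty droplets in both libraries, in basal-like cells 24, in cluster 20 20 and in endothelial-like cells 17. In hormone-responsive luminal-like cells only Lamb2 did, and in secretory-lineage luminal-like cells only Lama4 and Thbs1. The empty droplets themselves differed between the libraries. Their fibrillar collagen level was 301 CPM (Ctrl) and 125 CPM (CL), a log2 ratio (CL over Ctrl) of -1.27 [-1.36, -1.17], and their basement membrane level was 218 and 160 CPM, a log2 ratio of -0.45 [-0.54, -0.36].

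**Figure D2:**
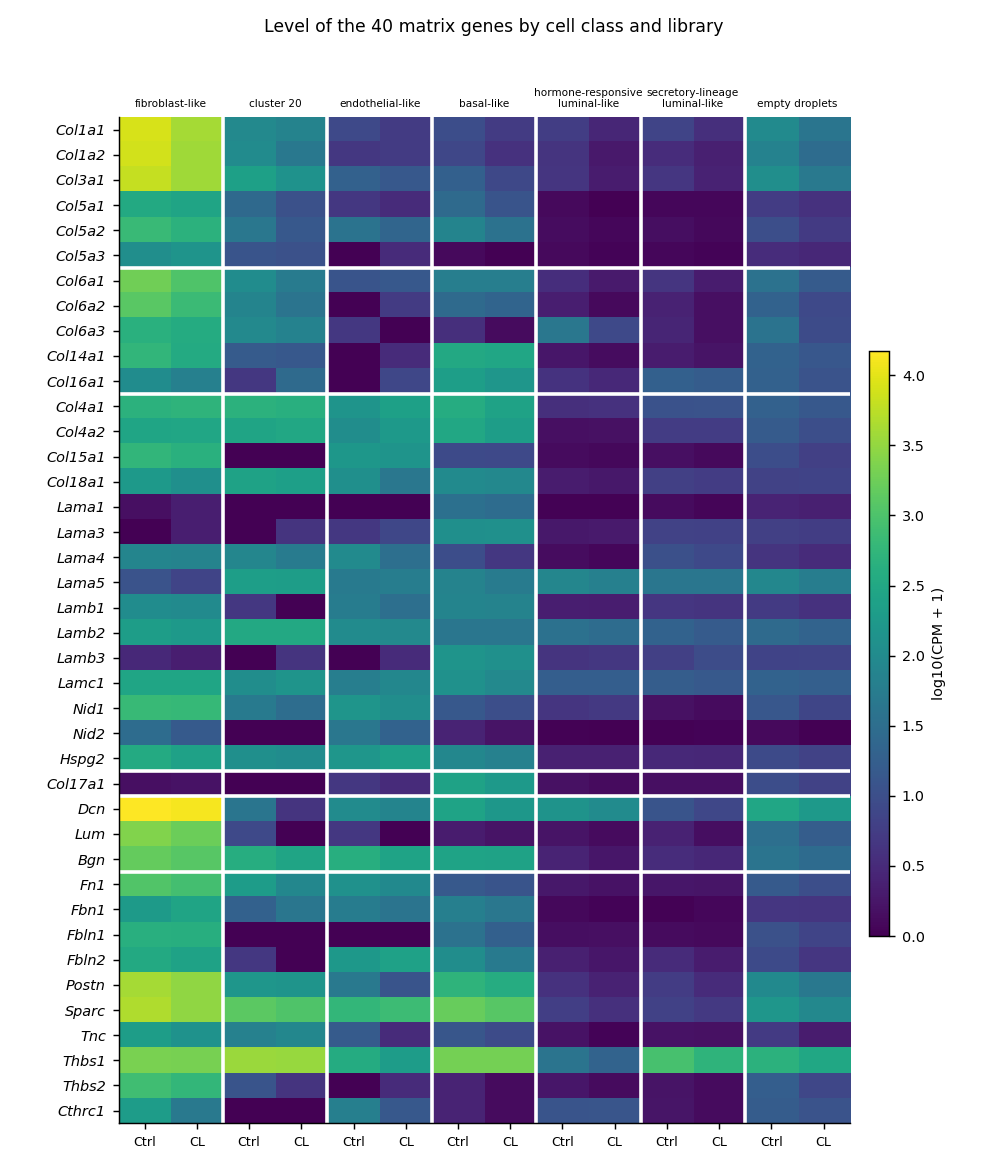
Level of each of the 40 genes as log10(CPM + 1) (colour) by cell class and library, with the empty droplets of 100 to 300 UMIs as the last pair of columns. White lines part the 6 gene groups and the classes. The fibrillar collagens and Dcn are brightest in fibroblast-like cells, and in the luminal-like classes most members are at or below the colour of the empty droplets.

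In fibroblast-like cells the 6 fibrillar collagens together stood at 23601 CPM in Ctrl and 12666 CPM in CL, a log2 ratio of -0.90 [-0.92, -0.87]. The 15 basement membrane genes in the same cells stood at 3224 and 2895 CPM, a log2 ratio of -0.16 [-0.21, -0.10]. Among the members with 50 or more UMIs over both libraries, 4 of 35 were at least 2-fold lower in CL (Col1a1, Col1a2, Nid2 and Cthrc1), where 2.06% of the 6904 genes measured to that depth were. None was 2-fold higher (1.33% of all genes). After subtraction of free mRNA Nid2 and Cthrc1 stayed past 2-fold, while Col1a1, at 9226 and 4649 CPM, and Col1a2, at 8780 and 4390.4 CPM, came just inside it. The counting interval lay below 0 for 25 of the 35 (12.6% of all genes) and above 0 for 2, Fbn1 and Col5a3 (9.85% of all genes). The median log2 ratio was -0.40 over the 35 members and -0.03 over all genes. The median depth per fibroblast-like cell also differed, at 7094.5 UMIs in Ctrl and 4984 in CL, and its part in these ratios was not tested.

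Type I collagen, the main fibril collagen, is built from the chains of Col1a1 (chr11:94936224-94953042, GRCm38) and Col1a2 (chr6:4504814-4541544). Col1a1 stood at 8196 CPM in Ctrl [8071, 8323] and 4080 CPM in CL [3983, 4178], a log2 ratio of -1.01 [-1.05, -0.97]. Col1a2 stood at 7797 CPM [7675, 7921] and 3852 CPM [3758, 3948], a log2 ratio of -1.02 [-1.06, -0.98]. The 2 chains kept their proportion, with 1.05 Col1a1 UMIs per Col1a2 UMI in Ctrl [1.03, 1.07] and 1.06 in CL [1.02, 1.10]. These are 3' counts, in which a gene's length does not set its level but its capture efficiency may. Col3a1, the chain of type III collagen, which forms thin fibrils together with type I, stood at 6494 and 3835 CPM, a log2 ratio of -0.76 [-0.80, -0.72].

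Type V collagen sits inside the fibrils and sets their width, and the ratios of its 3 chains were nearer 0 than those of type I or had the other sign. Col5a2 stood at 664 CPM in Ctrl and 480 CPM in CL, a log2 ratio of -0.47 [-0.60, -0.34]. Col5a1 stood at 336 and 275 CPM, a log2 ratio of -0.29 [-0.47, -0.12]. Col5a3 was the only fibrillar member with a higher level in CL, at 113 CPM [99.1, 129] in Ctrl and 143 CPM [126, 163] in CL, a log2 ratio of 0.34 [0.07, 0.61]. In cluster 16, a fibroblast-like cluster described below, the Col5a3 log2 ratio was -0.72 [-1.72, 0.23], from 26 Ctrl and 16 CL UMIs. Col3a1 and Col5a2 are neighbours on chromosome 1, 24614 bases apart on opposite strands with no coding gene between them.

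The lower fibrillar level was seen per cell as well as in the sum. Of the UMIs of a fibroblast-like cell, a median of 1.59% in Ctrl and 0.549% in CL came from the 6 fibrillar collagens. The 10th and 90th percentiles were 0.381% and 3.93% in Ctrl and 0.0984% and 2.39% in CL, so the cells of the 2 libraries overlapped widely. For the basement membrane genes the medians were 0.304% and 0.237%. Cells were then thinned to 1496 UMIs and those below that depth were left out, which kept 233 Ctrl and 242 CL fibroblast-like cells. Of these, 95.3% in Ctrl [91.7, 97.6] and 80.2% in CL [74.6, 85.0] held a Col1a1 UMI, against 0.488% and 0.284% of T and NK-like cells, which do not make collagen. At the same depth 59.2% [52.6, 65.6] and 38.8% [32.7, 45.3] held Col5a2, 103 of 233 and 121 of 242 held Col4a1, and the unthinned shares of Col5a2 were 80.7% and 65.8%.

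Fibroblast-like cells fell into 2 clusters. Cluster 10 (182 cells in each library) was led by Tnfaip6, Ccl2, Igfbp6 and Mmp3, and cluster 16 (72 Ctrl and 87 CL cells) by Ccl2, Il6, Apod and Ccl11, with a median of only 2791 UMIs per cell. In cluster 10 the fibrillar log2 ratio was -0.78 and the basement membrane ratio -0.07, and in cluster 16 they were -1.68 and -0.69. The periostin and thrombospondin 2 genes parted the clusters, since Postn stood at 4724 and 3739 CPM in cluster 10 but 65.9 and 9.76 CPM in cluster 16, and Thbs2 at 911 and 704 CPM against 29.7 and 9.76 CPM. Bgn differed the other way in Ctrl, with 1424 CPM in cluster 10 and 2267 CPM in cluster 16, but in CL it stood at 1267 and 972 CPM. In both clusters Col1a1, Col1a2 and Col3a1 were lower in CL beyond counting error, with log2 ratios of -0.90, -0.95 and -0.58 in cluster 10 and -1.63, -1.43 and -2.22 in cluster 16. Lama4, at 68.5 and 83.6 CPM in cluster 10, stood at 125 and 22.8 CPM in cluster 16 from 38 and 7 UMIs.

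**Figure D3:**
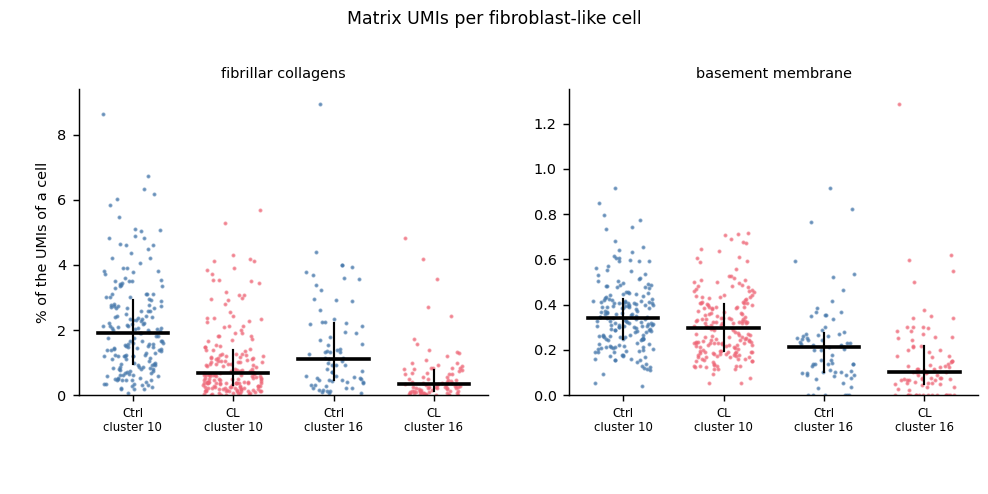
Percent of the UMIs of each fibroblast-like cell that came from the 6 fibrillar collagens (left) and the 15 basement membrane genes (right), by cluster and library. Each point is 1 cell, the thick line is the median and the thin line runs from the 25th to the 75th percentile. The fibrillar median is 1.92% in Ctrl and 0.668% in CL in cluster 10, and 1.13% and 0.335% in cluster 16.

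Collagen VI, which forms beaded filaments near the cell surface from chains of Col6a1, Col6a2 and Col6a3, was lower in CL in fibroblast-like cells to different degrees. Col6a1 stood at 1856 CPM in Ctrl and 1040 CPM in CL, a log2 ratio of -0.84 [-0.92, -0.75]. Col6a2 stood at 1288 and 704 CPM, a log2 ratio of -0.87 [-0.97, -0.77]. Their proportion held at 1.44 Col6a1 UMIs per Col6a2 UMI in Ctrl [1.37, 1.52] and 1.48 in CL [1.37, 1.59], and both genes lie on the minus strand of chromosome 10, 85161 bases apart. Col6a3, on another chromosome, stood at 451 and 362 CPM, a log2 ratio of -0.32 [-0.47, -0.17], whose interval does not meet those of the other chains. The FACIT collagens, which coat fibrils, had log2 ratios of -0.67 [-0.82, -0.52] for Col14a1 (556 and 349 CPM) and -0.75 [-1.09, -0.40] for Col16a1 (108 and 64.4 CPM).

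Of the 11 basement membrane genes with at least 50 UMIs in fibroblast-like cells, 5 were lower in CL beyond counting error and none higher. Of all genes, 12.6% were lower and 9.85% higher. Col4a1 and Col4a2, the 2 chains of the ubiquitous collagen IV, stood at 486 and 288 CPM in Ctrl and at 520 and 297 CPM in CL, with log2 ratios of 0.10 [-0.04, 0.23] and 0.04 [-0.13, 0.22]. They lie head to head on chromosome 8 (chr8:11198423-11312826, minus strand, and chr8:11312805-11449287, plus strand), with gene bodies that overlap by 22 bases. Among the laminins, which nucleate the sheet, the gamma chain Lamc1 (286 and 287 CPM), the alpha chain Lama4 (77.1 and 72.3 CPM) and the beta chain Lamb1 (105 and 97.2 CPM) had intervals that held 0. Lamb2 was at 211 and 175 CPM, a log2 ratio of -0.27 [-0.49, -0.05]. The linker nidogen 1 (Nid1) stood at 644 and 618 CPM, a log2 ratio of -0.06 [-0.18, 0.06], whereas its paralogue Nid2, at only 58 and 23 UMIs, had a log2 ratio of -1.07 [-1.83, -0.35].

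Hspg2, which encodes perlecan, a further linker of the sheet, stood at 354 and 248 CPM, a log2 ratio of -0.51 [-0.69, -0.34]. Col15a1, which links the sheet to fibrils, stood at 552 and 438 CPM, and Col18a1, the source of endostatin, at 178 and 120 CPM, with log2 ratios of -0.33 [-0.47, -0.20] and -0.58 [-0.84, -0.32]. The epithelial chains Lama1, Lama3, Lama5 and Lamb3 and the hemidesmosome collagen Col17a1 were at or below the empty droplets, and Lama5 at 10.6 and 6.07 CPM was far below their 83.7 and 58.5 CPM.

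Decorin (Dcn), which binds collagen fibrils and regulates their growth, had the most UMIs of any member in fibroblast-like cells. It stood at 14886 CPM in Ctrl and 13252 CPM in CL, a log2 ratio of -0.17 [-0.19, -0.14]. Lumican (Lum), a related fibril-binding proteoglycan 46984 bases from Dcn on chromosome 10, stood at 2404 and 1693 CPM, a log2 ratio of -0.51 [-0.57, -0.44]. Biglycan (Bgn) stood at 1553 and 1212 CPM, a log2 ratio of -0.36 [-0.44, -0.28].

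Among the matrix glycoproteins, Cthrc1 had the largest difference and Fbn1 the opposite sign. Cthrc1, a secreted protein of activated fibroblasts, stood at 201 CPM in Ctrl [182, 222] and 46.8 CPM in CL [36.9, 58.4], a log2 ratio of -2.11 [-2.48, -1.75]. Of its UMIs in fibroblast-like cells, 396 in Ctrl and 77 in CL were in cluster 10 and 3 and 0 in cluster 16. Fbn1, which encodes the microfibril protein fibrillin-1, stood at 187 CPM [168, 207] and 271 CPM [246, 297], a log2 ratio of 0.54 [0.34, 0.74], and in cluster 16 alone the ratio was -0.08 [-0.71, 0.55]. Sparc, a collagen-binding matricellular protein, stood at 4807 and 3049 CPM, a log2 ratio of -0.66 [-0.71, -0.61].

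The other glycoproteins lay between. Postn, which cross-links matrix, stood at 4012 and 3042 CPM (log2 ratio -0.40 [-0.45, -0.35]). Fibronectin (Fn1), the scaffold on which fibrils assemble, stood at 1104 and 845 CPM (-0.38 [-0.48, -0.29]). Fbln2, Tnc and Thbs2 had log2 ratios of -0.47, -0.62 and -0.44, each with an interval below 0, while Fbln1 (435 and 409 CPM) had an interval that held 0. Thrombospondin 1 (Thbs1), an activator of latent TGF-beta, was level in the class at 2126 and 2083 CPM, but its log2 ratio was 0.09 [0.02, 0.15] in cluster 10 and -0.83 [-1.04, -0.62] in cluster 16.

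**Figure D4:**
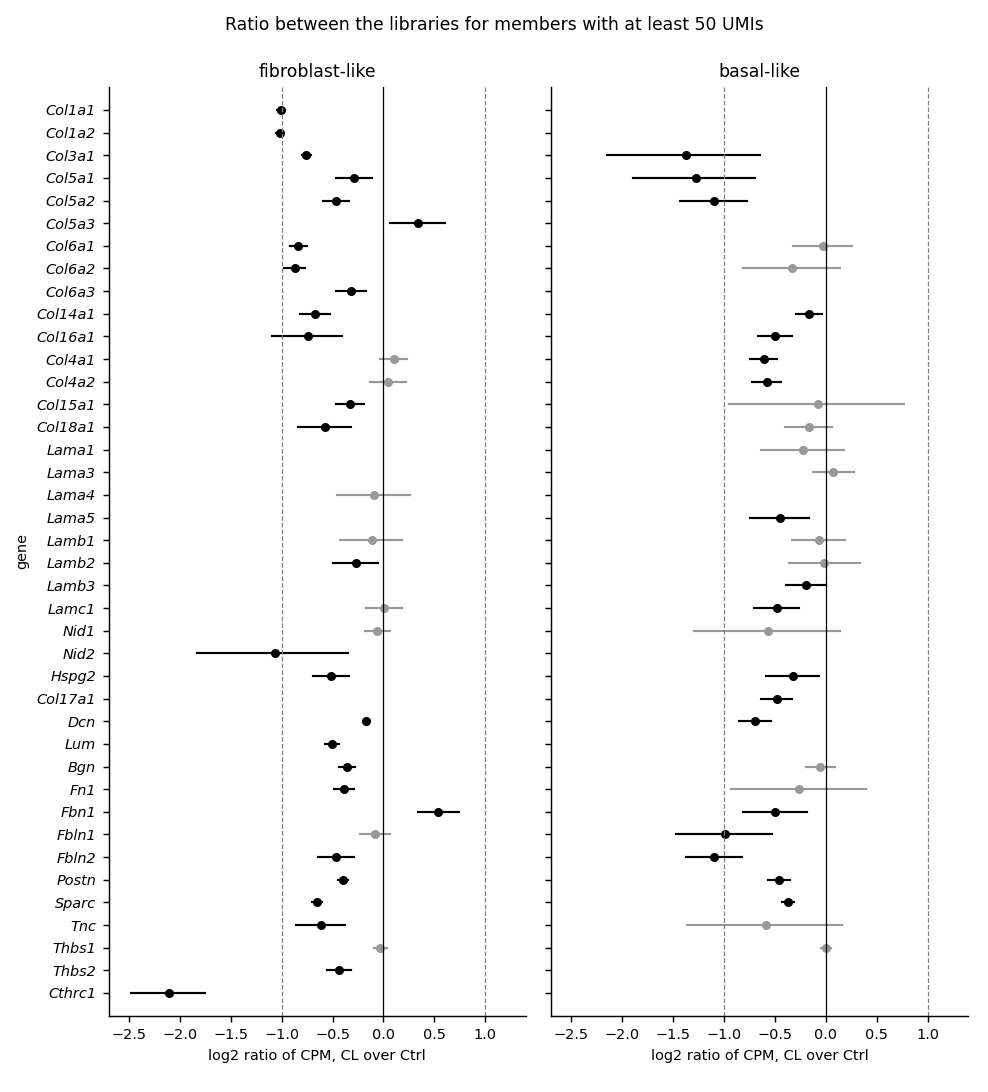
Log2 ratio of CPM between the libraries (CL over Ctrl) for each member with at least 50 UMIs, in fibroblast-like (left) and basal-like cells (right). Points are ratios, lines are 95% intervals for counting error, black marks an interval without 0, and dashed lines mark a 2-fold difference. Cthrc1 is farthest left (-2.11) and Fbn1 farthest right (0.54) in fibroblast-like cells, and no basal-like member has its interval above 0.

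Basal-like cells, whose members with most UMIs were Thbs1, Sparc and Postn, had a lower basement membrane level in CL. Their sum over those 15 genes was 1528 CPM (Ctrl) and 1176 CPM (CL), a log2 ratio of -0.38 [-0.44, -0.32]. At least 2-fold lower in CL were 4 of 31 members (Col3a1, Col5a1, Col5a2 and Fbln2; 1.02% of 8348 genes) and none was 2-fold higher (1.13%). The interval lay below 0 for 18 members (13.0% of all genes) and above 0 for none (6.92%), with a median log2 ratio of -0.45 over members and -0.08 over all genes. Of the 18, Col3a1, Dcn and Lama5 were below the empty droplets in both libraries, and Col3a1 was also among the 4. Dcn stood at 88.7% (Ctrl) and 91.6% (CL) of the level of the empty droplets. The median depth was 8027 UMIs per cell in Ctrl and 5832 in CL, and its part was not tested.

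Collagen IV was lower in the basal-like class of the CL library. Col4a1 stood at 384 CPM [364, 404] and 251 CPM [234, 270], a log2 ratio of -0.61 [-0.74, -0.48], and Col4a2 at 318 [300.2, 337] and 213 CPM [197, 230], a log2 ratio of -0.58 [-0.72, -0.44]. Thinned to 2061 UMIs, 41.0% of Ctrl [36.1, 46.0] and 31.3% of CL [26.7, 36.0] cells held a Col4a1 UMI (75.1% and 57.2% unthinned), against 0 of 194 and 5 of 682 T and NK-like cells. Cells below that depth, 10 Ctrl and 44 CL basal-like ones, were left out. There were 1.21 Col4a1 UMIs per Col4a2 UMI in Ctrl [1.12, 1.30] and 1.18 in CL [1.06, 1.31], below the 1.69 [1.52, 1.88] and 1.75 [1.57, 1.96] of fibroblast-like cells. That proportion was alike between the libraries and unlike between the classes. The class holds cluster 13 (396 Ctrl and 442 CL cells) and the small cluster 14 (9 and 2 cells). In cluster 13 the Col4a1 ratio was -0.63 [-0.76, -0.49], while in cluster 14 it had the other sign, at 513 and 863 CPM from 133 and 36 UMIs, a log2 ratio of 0.75 [0.18, 1.29]. Col4a2, Col18a1 and Postn were also higher in CL in cluster 14, with log2 ratios of 1.03, 1.38 and 1.77, values that rest on 2 CL cells.

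Lama3 and Lamb3 encode an alpha and a beta chain of epithelial laminins, and Lamb3 was counted in T and NK-like cells too (36.0 and 35.3 CPM, against 5.90 and 6.31 CPM in empty droplets). Lama3 stood at 119 and 125 CPM, a log2 ratio of 0.07 [-0.13, 0.28], and Lamb3, whose gene overlaps the non-coding 4930570N18Rik on the same strand and may share reads with it, at 142 and 124 CPM, a log2 ratio of -0.20 with an interval that barely left out 0. The embryonic alpha chain Lama1 was above the empty droplets in basal-like cells and in none of the other 5 groups of cells described here, at 33.9 and 29.1 CPM with an interval that held 0. Lamc1 stood at 128 and 91.8 CPM, a log2 ratio of -0.48 [-0.70, -0.27], and Hspg2 at 82.8 and 66.1 CPM, a log2 ratio of -0.33 [-0.59, -0.06]. Lama5, at 73.5 and 53.8 CPM, was not above the empty droplets.

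Col17a1 (chr19:47646344-47692094), the membrane-spanning collagen of hemidesmosomes, stood at 249 CPM [234, 266] in Ctrl and 178 CPM [164, 194] in CL, a log2 ratio of -0.48 [-0.64, -0.33]. After thinning, 38.5% [33.7, 43.5] and 26.8% [22.5, 31.4] of basal-like cells held a Col17a1 UMI (82.7% and 59.2% unthinned), against 1 of 194 and 0 of 682 T and NK-like cells.

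The fibrillar collagens in basal-like cells need the free mRNA beside them. Col1a1 at 8.55 and 4.34 CPM and Col3a1 at 18.2 and 7.01 CPM were below the empty droplets (99.7 and 40.4 CPM, and 114 and 47.3 CPM), so their lower level in CL cannot be told apart from that of the free mRNA. Of the type V chains, Col5a1 and Col5a2 were above it in both libraries, while Col5a3 was below it. Col5a1 stood at 26.7 CPM [21.7, 32.5] and 11.0 CPM [7.59, 15.5], against 4.44 and 2.97 CPM in empty droplets, a log2 ratio of -1.28 [-1.89, -0.70]. Col5a2 stood at 76.7 CPM [68.1, 86.1] and 35.7 CPM [29.3, 43.2], against 9.16 and 4.05 CPM, a log2 ratio of -1.10 [-1.44, -0.78]. Thinned to 2061 UMIs, 12.7% [9.54, 16.3] and 7.25% [4.91, 10.2] of basal-like cells held a Col5a2 UMI, with intervals that met. A Col5a1 UMI was held by 3.54% [1.95, 5.88] and 3.25% [1.74, 5.49], so no difference in Col5a1 was detectable per cell at that depth (19.3% and 6.98% unthinned). Of the 24 shares of cells taken at another depth or none, 20 moved. The shares at 2061 UMIs alone therefore do not decide whether the cells differed in either gene.

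The other members of basal-like cells differed to unequal degrees. Col14a1 and Col16a1 stood at 323 and 218 CPM in Ctrl and 289 and 154 CPM in CL, with log2 ratios of -0.16 [-0.29, -0.03] and -0.50 [-0.67, -0.33]. Fbln2 stood at 108 and 50.8 CPM, a log2 ratio of -1.10 [-1.37, -0.82], and Fbln1 at 35.8 and 18.04 CPM, a log2 ratio of -0.99 [-1.47, -0.52]. Both fibulins bind elastic fibres and basement membranes. Postn (521 and 378 CPM) and Sparc (1566 and 1214 CPM) had log2 ratios of -0.46 and -0.37, and Fbn1, higher in CL in fibroblast-like cells, was lower here at 62.8 and 44.4 CPM, a log2 ratio of -0.50 [-0.82, -0.19]. Thbs1 (2031 and 2030 CPM) and Bgn (261 and 251 CPM) did not differ beyond counting error in the class, and in cluster 14 alone Thbs1 stood at 837 and 144 CPM from 217 and 6 UMIs.

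Cluster 20 and the endothelial-like cells rest on few cells, and their counts are small. In cluster 20 the basement membrane genes together stood at 1916 CPM (Ctrl) and 1854 CPM (CL), a log2 ratio of -0.05 [-0.22, 0.13]. It held Thbs1 at 3463 and 3398 CPM, the highest of the classes described here, with Sparc at 1297 and 1053 CPM, Col4a1 at 473 and 436 CPM, Lamb2 at 332 and 327 CPM, Col18a1 at 253 and 224 CPM and Lama5 at 220 and 208 CPM. Its fibrillar sum, 137 UMIs in Ctrl and 86 in CL, gave a log2 ratio of -0.85 [-1.25, -0.45], and with a mitochondrial limit of 5% it turned to 0.35. Of 13 members Fn1 was 2-fold lower (1.28% of 1796 genes), at 205 and 85.8 CPM from 55 and 26 UMIs, a log2 ratio of -1.26 [-1.99, -0.56]. That count of 1 ran from 0 with a mitochondrial limit of 5% to 12 with each cell named alone, settings for which no share of all genes is given. The interval lay below 0 for 4 members, Fn1, Col3a1, Sparc and Bgn (7.13% of all genes), and above 0 for none (9.19%). Their median log2 ratio was -0.12 over the 13 and 0.00 over all genes.

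In endothelial-like cells the basement membrane genes together stood at 1253 CPM (Ctrl) and 1272 CPM (CL), a log2 ratio of 0.02 [-0.17, 0.22]. Col4a1 stood at 145 and 238 CPM, a log2 ratio of 0.71 [0.17, 1.28], and Hspg2 at 152 and 225 CPM, a log2 ratio of 0.56 [0.02, 1.12]. Col18a1, the only 1 of 14 members that was 2-fold lower (3.57% of 2381 genes, with none higher, 3.40%), stood at 119 and 44.0 CPM, a log2 ratio of -1.43 [-2.32, -0.58]. The interval lay below 0 for 3 members, Col18a1, Bgn and Thbs1 (13.9% of all genes), and above 0 for 5, Col4a1, Col4a2, Hspg2, Fbln2 and Sparc (12.7%). The class holds cluster 12 (34 Ctrl and 49 CL cells, led by Fabp4, Selp, Sele and Ackr1) and cluster 18 (19 and 10 cells, led by Nts, with Mmrn1 among its 10 leading genes), which the libraries filled unevenly. Col15a1 parted them, with 44 and 65 UMIs in cluster 12 and 0 in cluster 18. Scaled to the UMIs of cluster 12, Col15a1 stood at 281 and 166 CPM, a log2 ratio of -0.76 [-1.33, -0.17]. Thbs1, at 372 and 200.3 CPM, was below the 488 and 303 CPM of empty droplets in both libraries, and it had 63 and 2 UMIs in cluster 18 but 236 and 227 CPM in cluster 12. Within cluster 12 Col4a1 stood at 230 and 258 CPM, a log2 ratio of 0.16 [-0.40, 0.76]. Of the 8 members whose interval in the class left out 0, only Bgn had an interval without 0 in cluster 12. In the class the luminal genes used to track free mRNA stood at 2910 and 7828 CPM. After its subtraction the basement membrane ratio was 0.45, and Col4a1, Col4a2, Hspg2 and Fbln2 were past 2-fold higher and Col18a1 and Thbs1 past 2-fold lower. The members 2-fold higher also numbered 12 with each cell named alone and 3 as the mean of cells, and none was 2-fold lower at 200 UMIs. No share of all genes is given for these alternatives, so the counts show only how the call moved.

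In luminal-like cells most members were at or below the level of the empty droplets. Of 26 members measured in hormone-responsive luminal-like cells 8 were 2-fold lower in CL (1.49% of 12932 genes) and none higher (0.804%), but 7 of the 8 were below the empty droplets in both libraries. The interval lay below 0 for 16 members (25.3% of all genes) and above 0 for none (18.6%). The eighth, Col6a3, stood at 43.8 CPM in Ctrl [41.8, 45.8] and 7.37 CPM in CL [6.61, 8.19], a log2 ratio of -2.57 [-2.74, -2.40], against 37.5 and 8.02 CPM in empty droplets. It was carried by cluster 15 (917 Ctrl and 95 CL cells, led by Gpx3 and Aoc1), where it stood at 81.2 and 20.8 CPM. In cluster 1 (776 and 964 cells) it stood at 17.4 and 10.4 CPM, and in cluster 2 (262 and 1350 cells, led by Fgb and Upk3a), which held most of the class in CL, at 6.95 and 4.52 CPM. A cluster mostly of 1 library may be that library and not a type of cell.

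Decorin differed between the clusters of that class. Dcn stood at 139 and 100 CPM in the class, a log2 ratio of -0.47 [-0.53, -0.42], below the empty droplets at 296 and 177 CPM. In cluster 1, however, it stood at 176 CPM in Ctrl and 215 CPM in CL, above the empty droplets of CL but not of Ctrl, in cluster 2 at 13.2 and 22.7 CPM and in cluster 15 at 147 and 93.1 CPM. In cluster 3 Dcn stood at 37.8 and 108 CPM from 12 and 81 UMIs, a log2 ratio of 1.52 [0.64, 2.53]. The class sum was lower in CL while clusters 1, 2 and 3 were higher. The level of Dcn differed between hormone-responsive clusters of the same library by more than the libraries differed. Lamb2, the beta chain of mature epithelial and vascular laminins, was above the empty droplets at 35.4 and 29.0 CPM, and Lama5, its main epithelial partner, stood at 80.0 and 64.0 CPM, close to the 83.7 and 58.5 CPM of empty droplets.

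**Figure D5:**
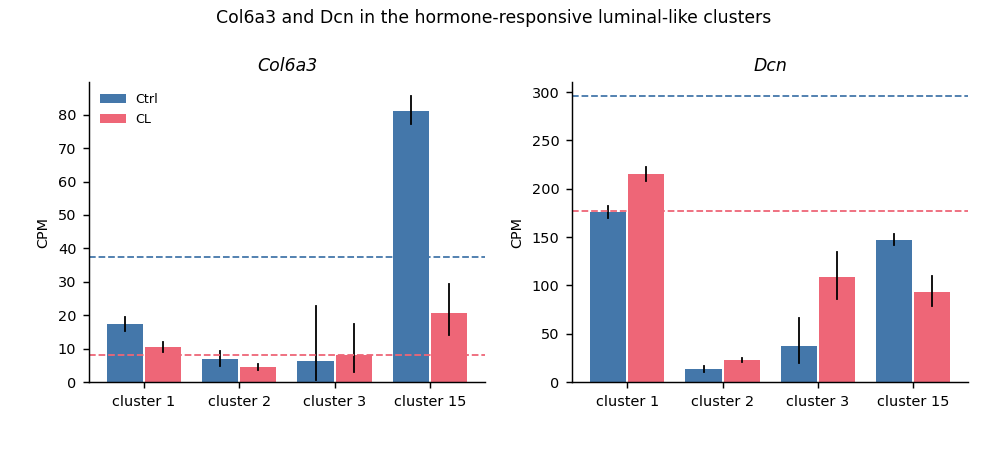
Level in CPM of Col6a3 (left) and Dcn (right) in the 4 hormone-responsive luminal-like clusters, with 95% Poisson intervals as lines and the empty droplets of each library as dashed lines in its colour. Col6a3 stands above the empty droplets of its library mainly in cluster 15 (81.2 CPM in Ctrl), and Dcn above those of CL in cluster 1 (215 CPM).

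In secretory-lineage luminal-like cells 7 of 27 members were 2-fold lower in CL (0.941% of 12321 genes) and none higher (1.18%), and all 7 were below the empty droplets in both libraries. The interval lay below 0 for 16 members (20.5% of all genes) and above 0 for 1, Lamb3 (15.1%). Thbs1 made up nearly all of the glycoprotein sum, at 920 CPM in Ctrl and 521 CPM in CL, above the 488 and 303 CPM of empty droplets, with a log2 ratio of -0.82 [-0.85, -0.79]. It was lower in CL in each of the 5 clusters of the class, from 645 and 595 CPM in cluster 6 (22 Ctrl and 950 CL cells) to 1095 and 441 CPM in cluster 7 (566 and 928 cells). Lama4, a laminin chain better known from vessels and stroma, stood at 9.51 and 7.36 CPM against 3.17 and 2.25 CPM in empty droplets. Lamb3 was higher in CL, at 5.09 and 8.26 CPM, a log2 ratio of 0.70 [0.42, 0.98], with 5.90 and 6.31 CPM in empty droplets.

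Genes that process, bind or regulate the matrix went both ways. In fibroblast-like cells the 17 collagen processing enzymes together stood at 3472 and 3304 CPM, a log2 ratio of -0.07 [-0.12, -0.02]. Of the 16 with at least 50 UMIs none was 2-fold different, 2 were higher and 5 lower beyond counting error, where 9.85% and 12.6% of all genes were. The extremes were Lox, which cross-links collagen (171 and 321 CPM, log2 ratio 0.91), and Pcolce, which aids the cleavage of procollagen (0.37), against Adamts2, which removes the amino propeptide (228 and 116 CPM, -0.98), and the lysyl hydroxylase Plod2 (-0.83). The 16 matrix receptors had a log2 ratio of -0.03 [-0.09, 0.03], from Dag1 at 0.35 and Cd44 at 0.22 to Itgb3 at -0.68 and Itgb4 at -2.11, with 2 higher and 5 lower of 13 beyond counting error. The 12 measured genes of the TGF-beta axis, which drives collagen synthesis, had a log2 ratio of -0.30 [-0.38, -0.22], from Tgfbr3 at 0.25 and Tgfb2 at -0.08 to Tgfbr2 at -0.75 and Ltbp1 at -0.77, with 1 higher and 4 lower of 11, beside the same 9.85% and 12.6% of all genes.

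In basal-like cells the same lists had log2 ratios of -0.15 [-0.22, -0.07] for the enzymes, -0.02 [-0.06, 0.02] for the receptors and -0.10 [-0.16, -0.04] for the TGF-beta axis. The collagen chaperone Serpinh1 was the lowest enzyme at 353 and 281 CPM, a log2 ratio of -0.33, next to Plod2 at -0.29, while P4ha1 and P4hb, subunits of the prolyl hydroxylase, had ratios of 0.18 and 0.17. Among the receptors Dag1, the laminin receptor dystroglycan, was at -0.61 and Sdc1 at -0.52, and Itga3 and Itga2 at 0.13 and 0.09. Ltbp2 and Tgfb2 had ratios of -0.43 and -0.66, and Ltbp4 of 0.09.

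Other gene lists differed between the libraries in the same cells, and their part in the matrix ratios was not tested. The interferon response list stood at 419 and 931 CPM in fibroblast-like cells, a log2 ratio of 1.15 [1.03, 1.28], and at 48.4 and 352 CPM in basal-like cells, 2.86 [2.63, 3.10]. The dissociation stress list had log2 ratios of -0.23 [-0.26, -0.20] and 0.14 [0.12, 0.16], and the luminal genes foreign to stroma of 0.13 [0.07, 0.19] and 0.16 [0.12, 0.20].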

How the data were processed

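The authors deposited unfiltered tables of raw UMI counts, for which the file headers name Cell Ranger 4 and the submitters' processing notes Cell Ranger 2.1.1 and mm10, with 6794880 barcodes by 32285 genes and no normalization. The deposited barcode lists (7217 Ctrl and 10555 CL) did not index the table columns, so as many barcodes with most UMIs were taken. Cells needed 500 genes and no more than 15% mitochondrial UMIs, and Scrublet in scanpy 1.11.5 marked doublets (368 and 564 removed). Its automatic threshold marked 0 CL cells, so the Ctrl threshold served both. Clusters came from 2000 variable genes without the members, 30 components, 15 neighbours and leidenalg 0.10.2 at resolution 1.0 (23 clusters), and were named from marker lists, as "-like", by a scoring set after the data were seen, in which smooth-muscle genes did not count against the pericyte name. Names may differ from the study's.

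UMI sums per class and library were scaled by the total of that class (CPM). Ratios have exact conditional binomial intervals and CPM exact Poisson intervals at 95% (scipy 1.17.1). Scripts were tested on simulated data. A member was called at 2-fold with at least 50 UMIs over both libraries. All 40 members are described, and of each other list the 2 highest and 2 lowest genes are named, except 1 gene that is not reported here. Alternatives covered filters, doublets, clustering, TMM scaling (edgeR 4.0.16), free mRNA and the call rule. Members and lists were chosen with earlier results of these data known. Gene positions are from GENCODE M21 on GRCm38.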

Additional observations from a re-analysis of the deposited data

How the results depend on the processing

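No paired analysis was possible because each group has 1 library. The limits are the lack of replicates, small stromal classes, free mRNA and rebuilt cell names. Of 130 alternative values of summed ratios 103 stayed within counting error of the value given, and of 200 counts of members 166 stayed within 1.5 times. Of 24 shares of cells with a UMI at another depth or none 20 moved, as did 3 of 4 levels in empty droplets, and the cause of the other shifts was not tested. Subtraction of free mRNA was not run for the luminal-like classes.

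The fibrillar log2 ratio of fibroblast-like cells (-0.90) was -0.92 with no mitochondrial limit, -0.96 with doublets kept, -0.87 with members allowed for clustering, -1.09 as the mean of the CPM of each cell, -0.78 in cluster 10 and -1.68 in cluster 16. Their basement membrane ratio (-0.16) was -0.29 as the mean of cells, -0.069 in cluster 10 and -0.69 in cluster 16. In cluster 20 or its equivalent the fibrillar ratio (-0.85) turned to 0.35 at a mitochondrial limit of 5%, and was -1.75 with doublets kept, -1.39 at resolution 0.5 and -3.42 with each cell named alone, and the basement membrane ratio (-0.05) was 0.19, -0.56, -0.23 and -0.38. The endothelial-like basement membrane ratio (0.02) was 0.23 with each cell named alone, 0.35 as the mean of cells, 0.45 after subtraction of free mRNA and 0.28 in cluster 18. Over all its alternatives this ratio ran from -0.16 to 0.45, so its sign was not settled. The basal-like one (-0.38) was -0.57 with doublets kept and -0.31 with TMM scaling. The hormone-responsive one (-0.23) was -0.17 at 5% mitochondrial UMIs, -0.29 without clusters mostly of 1 library and -0.28 as the mean of cells, and the secretory-lineage one (-0.09) was -0.17 as the mean of cells.

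The counts of members below have no share of all genes under the same alternative beside them. They show how the call moved and are not read as results about the members. Members at least 2-fold lower in fibroblast-like cells (4) numbered 2 after subtraction of free mRNA and 11 at 1.5-fold. In cluster 20 (1) they numbered 0 at 5% mitochondrial UMIs, 5 with no limit, 11 with doublets kept, 8 at resolution 0.5, 12 with each cell named alone, 2 at 20 UMIs, 0 at 200 UMIs and 2 at 1.5-fold. In endothelial-like cells (1) they numbered 2 at 1000 genes, at 5% mitochondrial UMIs, with members allowed for clustering, with each cell named alone and after subtraction, 4 at 20 UMIs, 0 at 200 UMIs and 3 at 1.5-fold, and the members higher (0) numbered 12 with each cell named alone, 3 as the mean of cells, 4 after subtraction and 2 at 1.5-fold. In basal-like cells (4) the lower ones numbered 7 with doublets kept, 2 at 200 UMIs and 8 at 1.5-fold. In hormone-responsive cells (8) they numbered 5 at 5% mitochondrial UMIs and at resolutions 0.5 and 2.0, 4 with each cell named alone, 2 at 200 UMIs and 13 at 1.5-fold. In secretory-lineage cells (7) they numbered 1 at 200 UMIs and 12 at 1.5-fold, with 1 higher (0 in the main count). In droplets of 30 to 100 UMIs the fibrillar levels of Ctrl and CL were 376.9 and 164.6 CPM, and the basement membrane level of CL was 194.9 CPM.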

Other observations

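Immune cells make little matrix, but Thbs1 and Fn1 were counted in cluster 21, which was led by Lyz2 and S100a8 and left unnamed (18 Ctrl and 211 CL cells). Thbs1 stood there at 2213 CPM in Ctrl and 1722 CPM in CL, against 488 and 303 CPM in empty droplets, and Fn1 at 120 and 147 CPM, against 14.2 and 8.92 CPM. Lama4 and Cthrc1 held no UMI in that cluster. In T and NK-like cells Lamb3 was the 1 member above the empty droplets in both libraries (Lamc1 was in CL alone), at 30.5 and 37.6 CPM in cluster 17 and 44.4 and 33.6 CPM in cluster 19, and 14.6% of those cells held a Lamb3 UMI in each library without thinning, against 61.0% and 48.2% of basal-like cells, with medians of 4872 and 4458 against 8027 and 5832 UMIs per cell.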
